A study of Mus musculus with 6 samples.

Results

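The nuclear receptors other than the retinoic acid receptors and the liver X receptors were described in resident peritoneal macrophages with the transcription factor gene Gata6 conditionally deleted or intact. The set was a list of 39 genes, chosen by name with earlier results of these data known. Its members were the probe sets whose only gene symbol in the array annotation is on that list. In all, 38 of the 39 genes had such a probe set, of 18193 genes in the series, and together they had 104 of the 45037 probe sets that are not controls. Nr2e3 had none. Gata6-KO was represented by 3 arrays and Gata6-WT by 3 arrays. Gata6-KO samples came from mice with a conditional deletion of floxed Gata6, and Gata6-WT samples from wild type mice. Mice of both genotypes were 7 weeks old and, per the series design, sex-matched. Each sample was a pool of 2 to 3 mice, from which resident macrophages were sorted after peritoneal lavage by high CD11b and little or no MHC class II. The labels call the samples biological replicates. The sources used here name neither the Cre line that drove the deletion nor the exons it removes.

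Nuclear receptors are transcription factors whose ligands are small, fat-soluble molecules such as steroid and thyroid hormones, vitamin D, fatty acids and bile acids. Orphan members have no known natural ligand or work without one. Many members bind DNA as a pair with a retinoid X receptor, whereas steroid receptors pair with themselves. Without ligand many recruit corepressors, and with ligand they recruit coactivators. In macrophages the family is known for its part in lipid handling, in the restraint of inflammatory genes and in the daily rhythm of transcription.

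Signals are the authors' linear intensities, scaled so that the trimmed mean was 500 on every array, and array medians lay between 79.7 and 88.5. A Gata6 probe set, 1443081_at, had a signal of 180 ± 6.47 in Gata6-KO and 423 ± 76.6 in Gata6-WT (SD, n = 3 each; log2 difference -1.15, adjusted p = 0.0043, limma). A second, 1425464_at, was also lower (3497 ± 828 in Gata6-KO and 6372 ± 938 in Gata6-WT, log2 difference -0.88, adjusted p = 0.011). The remaining Gata6 probe set, 1425463_at, was not (1758 ± 399 in Gata6-KO and 1775 ± 443 in Gata6-WT). Which of these probe sets lies in the deleted part is not known here. Xist and the Y-linked genes showed that the arrays numbered 1 held male-type RNA and those numbered 2 and 3 female-type RNA, in both genotypes. For several receptors, differences are therefore also given within the female-type arrays (2 against 2) and within the male-type arrays (1 against 1, no test). All 8 macrophage markers listed were above background, with summed signals of 196671 to 211781 in Gata6-KO and 222438 to 272344 in Gata6-WT. Of these 8 markers 1 was higher and 4 were lower in Gata6-KO, beside 5.61% higher and 7.46% lower among all genes tested. Mertk was the higher marker, and the lower were Adgre1, which encodes F4/80, Icam2, Cd68 and Timd4. Adgre1 had 12149 ± 3204 in Gata6-KO and 43123 ± 3980 in Gata6-WT, a large part of the difference in sums. Csf1r, Lyz2 and Itgam overlapped between genotypes and did not pass (adjusted p = 0.836, 0.985 and 0.511, limma). Csf1r had 57372 ± 5147 in Gata6-KO and 55393 ± 7553 in Gata6-WT. None of 8 mesothelial and none of 5 eosinophil markers was above background. Between 1 and 2 markers each of fibroblasts, B cells, T cells, mast cells, neutrophils, dendritic cells and endothelial cells were. Of the 5 neutrophil markers S100a8 was lower (488 ± 186 in Gata6-KO and 1111 ± 332 in Gata6-WT), while S100a9 was below background, and summed signals were 435 to 824 in Gata6-KO and 970.5 to 1616 in Gata6-WT. Of the 5 dendritic cell markers Cd209a was lower (117 ± 35.9 in Gata6-KO and 658 ± 419 in Gata6-WT), and the other above background, Zbtb46, had 185 ± 111 in Gata6-KO and 135 ± 18.1 in Gata6-WT (adjusted p = 0.776). Of the 3 below background, Xcr1 had 59.7 ± 5.61 in Gata6-KO and 29.6 ± 23.2 in Gata6-WT. The dendritic cell sums overlapped, at 262 to 539 in Gata6-KO and 490.2 to 1278 in Gata6-WT. Of the 6 mast cell markers Cpa3 had 159 ± 42.4 in Gata6-KO and 280.0 ± 27.6 in Gata6-WT, and Cma1 79.5 ± 49.95 in Gata6-KO and 198 ± 48.9 in Gata6-WT. Neither passed (adjusted p = 0.051 and 0.083), and the mast cell sums were 326 to 494 in Gata6-KO and 509.6 to 609.7 in Gata6-WT. The part of such cells in the receptor values was not tested.

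A background level was set from 83 probe sets of olfactory, vomeronasal and bitter taste receptors, whose mean signals had a 95th percentile of 100.2. By this level 16 of the 38 receptors were expressed, a gene being counted where any of its probe sets exceeded it. They were Pparg, Ppard, Rxrb, Thra, Nr1d2, Rora, Nr2c1, Nr2c2, Nr2f6, Esr1, Esrra, Esrrb, Nr3c1, Nr3c2, Nr4a1 and Nr4a2. A further 12 passed the filter on low signals (a mean of log2(signal + 16) above 5.99) but lay below the background level, with mean signals of 50.9 to 94.7. The remaining 10 did not pass the filter. For each gene with several probe sets that passed, the one with the highest mean of log2(signal + 16) represents it unless another is named. The level of one probe set cannot be compared closely with that of another, so the background level is only a rough cut. At the 99th percentile of the same background probe sets, 491.6, 7 receptors lay above it. Differences are read across arrays only.

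**Figure D1:**
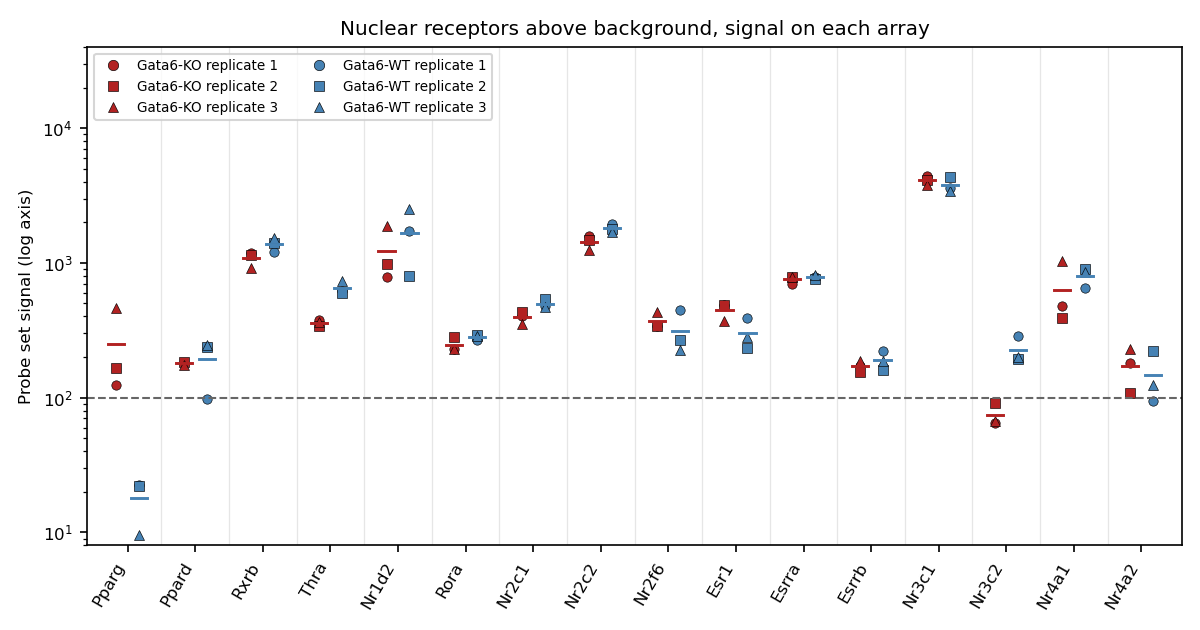
Signal (log axis, authors' scaled intensity) of the representative probe set of each of the 16 receptors above background, on 3 Gata6-KO arrays (left of each pair) and 3 Gata6-WT arrays (right). Points are arrays, short bars are group means and the dashed line is the background level of 100.2. Pparg is above the line on all Gata6-KO arrays and below it on all Gata6-WT arrays, and Nr3c2 is the reverse.

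Few of the receptors differed between the genotypes. At an adjusted p threshold of 0.05 (limma, adjusted over all 27022 probe sets tested), 3 of the 28 receptor genes tested differed, or 10.7%, against 13.1% of all genes tested. Pparg was higher in Gata6-KO (5.61% of all genes tested were), and Nr3c2 and Thra were lower (7.46% were). By probe sets, 4 of 57 differed (7.02%, against 10.8% of all probe sets tested), and the additional probe set was a higher one of Nr3c1. Thus 2 were higher and 2 lower, beside 5.12% higher and 5.67% lower among all probe sets tested. Both shares are under those of all features tested, and nothing particular to the receptors is read from them. The arrays of the genotypes did not overlap for 12 of the 57, of which 6 were above and 6 below in Gata6-KO. Such separation was seen for 31.0% of all probe sets tested, 14.8% with Gata6-KO above and 16.3% with Gata6-KO below. The median log2 difference was 0.06 for the 57 and -0.01 for all probe sets tested. The median absolute difference was 0.31 for the 57 and 0.28 for all probe sets tested.

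The other 13 expressed receptor genes did not pass the test. Their log2 differences lay between -0.45 and 0.56, and their 95% intervals reached from 0.28 to 0.92 to either side of the estimate. The narrowest interval was that of Esrra (-0.33 to 0.23), and the widest that of Nr1d2 (-1.33 to 0.50).

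**Figure D2:**
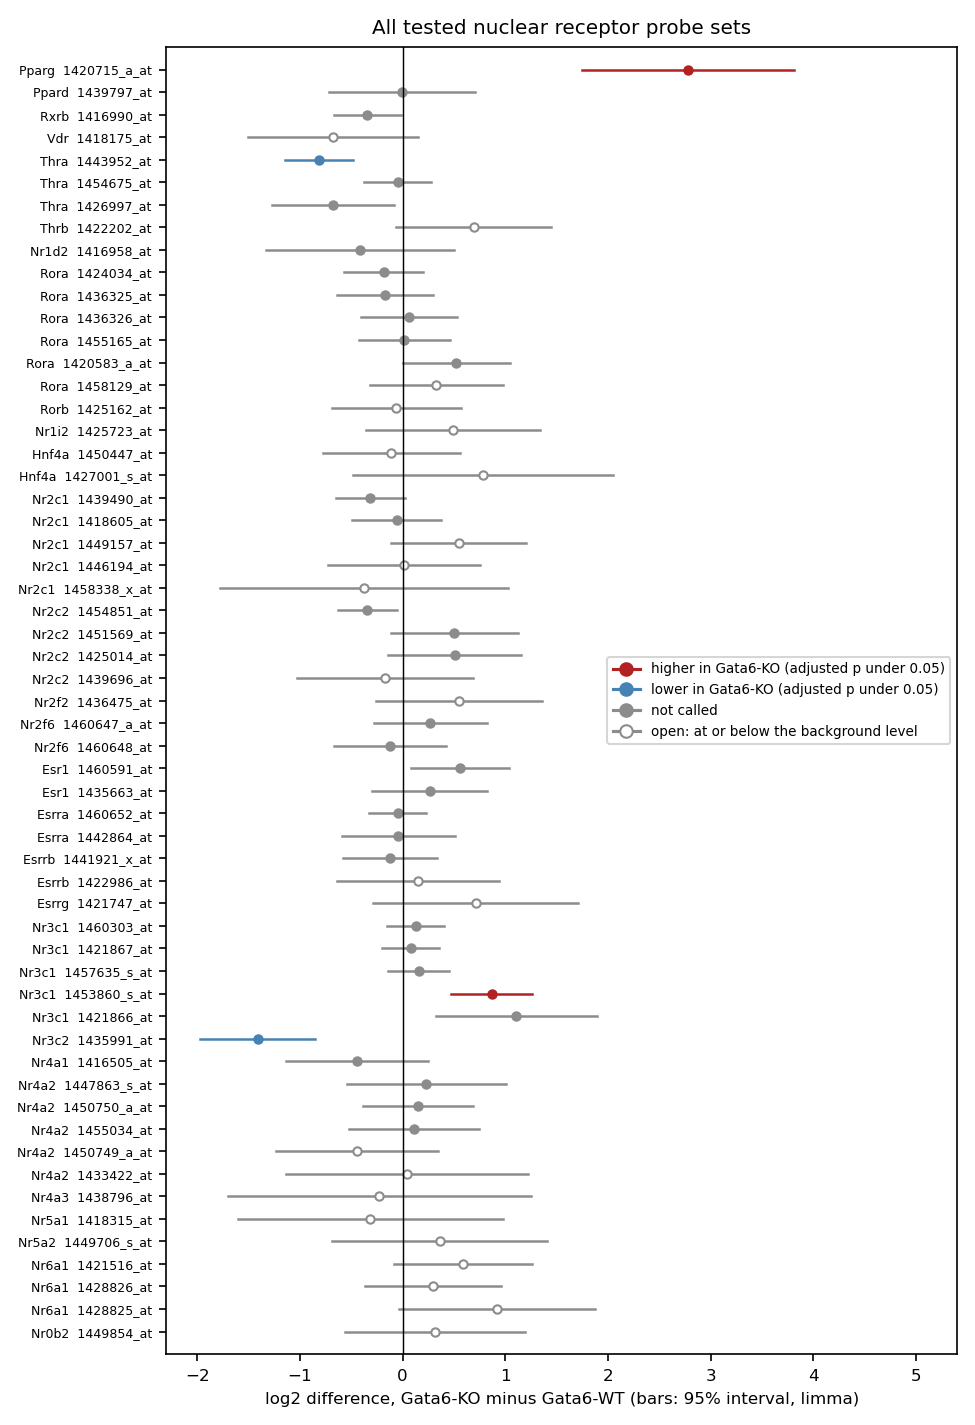
Difference of log2(signal + 16), Gata6-KO minus Gata6-WT, with its 95% interval for each of the 57 receptor probe sets tested, named by gene. Red marks the 2 that were higher and blue the 2 that were lower at the adjusted p threshold of 0.05, grey marks the rest, and open points are probe sets at or below the background level. Pparg lies at 2.78, Nr3c2 at -1.41, the lower Thra probe set at -0.82 and the higher Nr3c1 probe set at 0.87, and the intervals of most others include 0.

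Pparg encodes the fatty acid-activated receptor PPARγ, the regulator of fat cell formation and of lipid handling in several macrophage types. Its probe set 1420715_a_at had signals of 125, 166 and 459.9 in Gata6-KO, against 22.5, 22.1 and 9.53 in Gata6-WT. Each Gata6-KO array lay above the background level and each Gata6-WT array well below it, and Gata6-KO replicate 3 stood above the other Gata6-KO arrays. The means were 250 ± 183 in Gata6-KO and 18.1 ± 7.39 in Gata6-WT (SD, n = 3 each). The log2 difference was 2.78 ± 0.46 (SE; 95% interval 1.74 to 3.81, adjusted p = 0.0048, limma). The probe set passed the filter through its Gata6-KO signals alone, and with no filter it was called too. Since the Gata6-WT arrays lay below background, the data show a signal in Gata6-KO against none above background in Gata6-WT, and no exact fold. The size rests on the constant added before log2, being 3.57 with 1 and 1.79 with 64 in place of 16, and it was 3.24 within female-type and 1.87 within male-type arrays. In RNA of sorted pools, fewer cells of a kind and less RNA per cell cannot be told apart, here and below.

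Promoter windows of Pparg are printed because it had the largest difference of the receptors tested. Each holds 250 bases before and 50 bases after an annotated start (RefSeq, GRCm38.p6, plus strand). Capitals mark the letters AGGTCA, the core word that many nuclear receptors recognise, searched on both strands.
Pparg, chr6:115360894-115361193: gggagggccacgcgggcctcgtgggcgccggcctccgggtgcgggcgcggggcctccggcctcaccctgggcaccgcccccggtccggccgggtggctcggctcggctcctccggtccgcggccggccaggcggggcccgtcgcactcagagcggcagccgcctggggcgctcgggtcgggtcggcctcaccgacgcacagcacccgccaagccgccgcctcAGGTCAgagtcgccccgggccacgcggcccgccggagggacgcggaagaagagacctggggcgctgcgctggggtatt
Pparg, chr6:115362099-115362398: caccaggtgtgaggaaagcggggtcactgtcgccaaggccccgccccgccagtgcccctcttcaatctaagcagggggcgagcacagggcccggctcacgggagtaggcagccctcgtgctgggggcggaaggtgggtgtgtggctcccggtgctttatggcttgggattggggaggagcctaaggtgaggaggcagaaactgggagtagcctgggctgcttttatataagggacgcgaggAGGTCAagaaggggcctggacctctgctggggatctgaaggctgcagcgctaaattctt
In the first window the word lies 28 bases before the start and in the second 9 bases before it. The remaining annotated window of Pparg did not hold it. Over 36 receptor genes with windows read, 9 of 51 windows held AGGTCA (17.6%, against 16.3% of all 32851 windows). GATA words (AGATAA, also with T as its first or G as its last letter, on either strand) stood in 14 of the 51 (27.5%, against 29.8%), and in none of the 3 of Pparg. A match is a description of letters, not of binding.

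Ppard, the broadly expressed fatty acid receptor, had 179, 184 and 175 in Gata6-KO against 97.4, 238 and 247 in Gata6-WT. The Gata6-KO arrays lay within the Gata6-WT range (log2 difference -0.01, 95% interval -0.72 to 0.70, adjusted p = 0.993). The Ppard difference had opposite signs within female-type (-0.40) and male-type arrays (0.78). Ppara, the receptor of fasting fat oxidation, did not pass the filter and had at most 82.7 on any array. Rxrb, a shared partner of many receptors, had 1180.0, 1154 and 923 in Gata6-KO, against 1202, 1407 and 1533 in Gata6-WT. The groups did not overlap, and the difference did not pass the test (log2 difference -0.34, 95% interval -0.67 to -0.02, adjusted p = 0.179). For Rxrb it was -0.50 within female-type and -0.03 within male-type arrays. Rxrg did not pass the filter. Rxra, the partner that is not among the receptors listed here, had 1275 ± 71.8 in Gata6-KO and 1271 ± 168 in Gata6-WT (log2 difference 0.01, adjusted p = 0.969).

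The gene lists here and below were chosen with earlier results of these data known, so their counts are descriptions only. Genes known as PPAR targets in fat and other tissues were read first. Of 15 tested, none was higher and 3 were lower by their representative probe sets, beside 5.61% higher and 7.46% lower among all genes tested. The median log2 difference was -0.06 against -0.04 for all genes tested. The 3 were the fatty acid carriers Fabp4 and Fabp5 and the lipoprotein lipase Lpl. Fabp4 had 790.0, 1677 and 1911 in Gata6-KO against 21961, 15203 and 28709 in Gata6-WT (log2 difference -3.95, adjusted p = 8.8e-05). Every Gata6-KO array was far below every Gata6-WT array. The log2 difference was -2.71 for Fabp5 and -1.06 for Lpl (adjusted p = 4.6e-05 and 0.00015). A second probe set of Cpt1a, the enzyme that admits fatty acids to mitochondria, went the other way: 1438156_x_at was higher, with 2689.6 ± 265 in Gata6-KO and 1625 ± 270.4 in Gata6-WT (log2 difference 0.73, adjusted p = 0.012). The representative probe set of Cpt1a overlapped (log2 difference 0.21, adjusted p = 0.392), as did 1460409_at (log2 difference 0.29, adjusted p = 0.514). Cd36, the scavenger receptor for fatty acids, had 20998 ± 3860.1 in Gata6-KO and 15826 ± 1327 in Gata6-WT, and Plin2, which coats lipid droplets, had 26284 ± 3430.2 in Gata6-KO and 19133 ± 3763 in Gata6-WT. Their groups were apart, with Gata6-KO above, but neither passed (adjusted p = 0.122 and 0.085). For Cd36 this held for the representative probe set only. Probe sets 1423166_at and 1450884_at of Cd36 overlapped between genotypes (log2 differences 0.05 and -0.07, adjusted p = 0.875 and 0.851).

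The thyroid hormone receptor gene Thra, whose transcripts are spliced to a hormone-binding form and a form that does not bind hormone, had 3 probe sets that passed the filter. Probe set 1443952_at had 378, 340.3 and 361 in Gata6-KO, against 619, 594 and 728 in Gata6-WT. All Gata6-KO arrays were below all Gata6-WT arrays (359.8 ± 18.7 in Gata6-KO and 647 ± 71.2 in Gata6-WT; log2 difference -0.82 ± 0.15 SE, adjusted p = 0.0070, limma). It was -0.88 within female-type and -0.69 within male-type arrays. The other probe sets did not pass. Probe set 1454675_at had 346, 365 and 393 in Gata6-KO against 363, 391 and 389 in Gata6-WT, where the groups overlapped (log2 difference -0.05, adjusted p = 0.88). Probe set 1426997_at had 279, 309 and 209.8 in Gata6-KO against 425, 295 and 628 in Gata6-WT, again with overlap but a difference of the same sign (log2 difference -0.68, 95% interval -1.27 to -0.08, adjusted p = 0.147). It was -0.73 within female-type and -0.58 within male-type arrays. The mean over the 3 did not pass (log2 difference -0.51, adjusted p = 0.053), so 1 probe set was called and the gene as the mean of its probe sets was not. Which transcript each probe set reads is not stated in the sources used here, and Thra overlaps Nr1d1 in the GRCm38.p6 gene table. Thrb was near background, with 67.6, 131 and 85.0 in Gata6-KO and 64.5, 51.1 and 38.6 in Gata6-WT. The groups were just apart, and the difference did not pass (log2 difference 0.69, adjusted p = 0.242). For Thrb it was 1.01 within female-type and 0.05 within male-type arrays.

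Of the genes that handle thyroid and steroid hormones and vitamin D, 1 of 5 tested passed the threshold, beside 13.1% of all genes tested. The list median was -0.21. Without Gata6-KO replicate 1 the number was 2, and the share of all genes called in that fit is not given here. The gene called with all arrays was Slc16a10, a transporter of aromatic amino acids and thyroid hormone. It had 1886, 2244 and 2543 in Gata6-KO, against 841, 806 and 977 in Gata6-WT. The groups were far apart (log2 difference 1.33, adjusted p = 0.00043). Hsd11b1, which regenerates active glucocorticoid, had 958 ± 269.9 in Gata6-KO and 1419 ± 89.9 in Gata6-WT, and H6pd, which supplies its cofactor, had 819 ± 208 in Gata6-KO and 1331 ± 353 in Gata6-WT. The groups were apart for both genes, with Gata6-KO below, and neither passed (adjusted p = 0.089 and 0.085). For H6pd the male-type arrays were almost equal, with 1036 in Gata6-KO and 1040 in Gata6-WT. Vdr, the vitamin D receptor, was near background with 37.5, 33.4 and 35.7 in Gata6-KO and 62.3, 45.9 and 100 in Gata6-WT. For this probe set, 1418175_at, all Gata6-KO arrays were lower, and the difference did not pass (log2 difference -0.68, adjusted p = 0.293). Probe set 1418176_at of Vdr did not pass the filter and overlapped, with 44.6 ± 31.5 in Gata6-KO and 48.0 ± 32.6 in Gata6-WT. Cyp27b1, which makes active vitamin D, and Cyp24a1, which degrades it and is a classical Vdr target, did not pass the filter.

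Nr3c2 encodes the mineralocorticoid receptor, which binds aldosterone and also glucocorticoids. Its probe set 1435991_at had 65.0, 91.7 and 67.0 in Gata6-KO, against 285, 194 and 199.8 in Gata6-WT. Each Gata6-KO array lay below the background level and each Gata6-WT array above it. The means were 74.6 ± 14.9 in Gata6-KO and 226 ± 51.0 in Gata6-WT (SD, n = 3 each; log2 difference -1.41 ± 0.25 SE, 95% interval -1.97 to -0.85, adjusted p = 0.0067, limma). The difference was -1.17 within female-type arrays, where it did not pass alone (adjusted p = 0.067), and -1.89 within male-type arrays. Its promoter window, shown because it belongs to the receptor gene with the largest fall among those tested, held no AGGTCA, no GATA word and no CACGTG (RefSeq, GRCm38.p6, plus strand).
Nr3c2, chr8:76902080-76902379: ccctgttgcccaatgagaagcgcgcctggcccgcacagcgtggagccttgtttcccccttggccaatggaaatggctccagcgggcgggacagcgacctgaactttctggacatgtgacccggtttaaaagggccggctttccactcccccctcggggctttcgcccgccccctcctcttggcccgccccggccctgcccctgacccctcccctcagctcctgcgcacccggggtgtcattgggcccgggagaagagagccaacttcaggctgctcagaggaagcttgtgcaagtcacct

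Nr3c1 encodes the glucocorticoid receptor, and its probe sets gave different answers. The probe set with the highest signals, 1460303_at, had 4437, 4092 and 3764 in Gata6-KO, against 3567, 4338 and 3394 in Gata6-WT. The groups overlapped (log2 difference 0.13, 95% interval -0.15 to 0.41, adjusted p = 0.585). Probe sets 1421867_at and 1457635_s_at likewise overlapped. The mean over the 5 tested probe sets of Nr3c1 did not pass (log2 difference 0.47, adjusted p = 0.078). In contrast, 1453860_s_at had 524, 416 and 522 in Gata6-KO, against 280.2, 281 and 218 in Gata6-WT. All Gata6-KO arrays were higher (log2 difference 0.87 ± 0.18 SE, adjusted p = 0.013), a call that was lost without Gata6-KO replicate 3 (log2 difference 0.82, adjusted p = 0.053) and within the female-type arrays (0.87, adjusted p = 0.075). Probe set 1421866_at also had its groups apart, with 289, 206 and 300.3 in Gata6-KO and 114, 199 and 60.7 in Gata6-WT, but did not pass (log2 difference 1.11, adjusted p = 0.079). The positions of these probe sets in the gene are not stated in the sources used here.

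**Figure D3:**
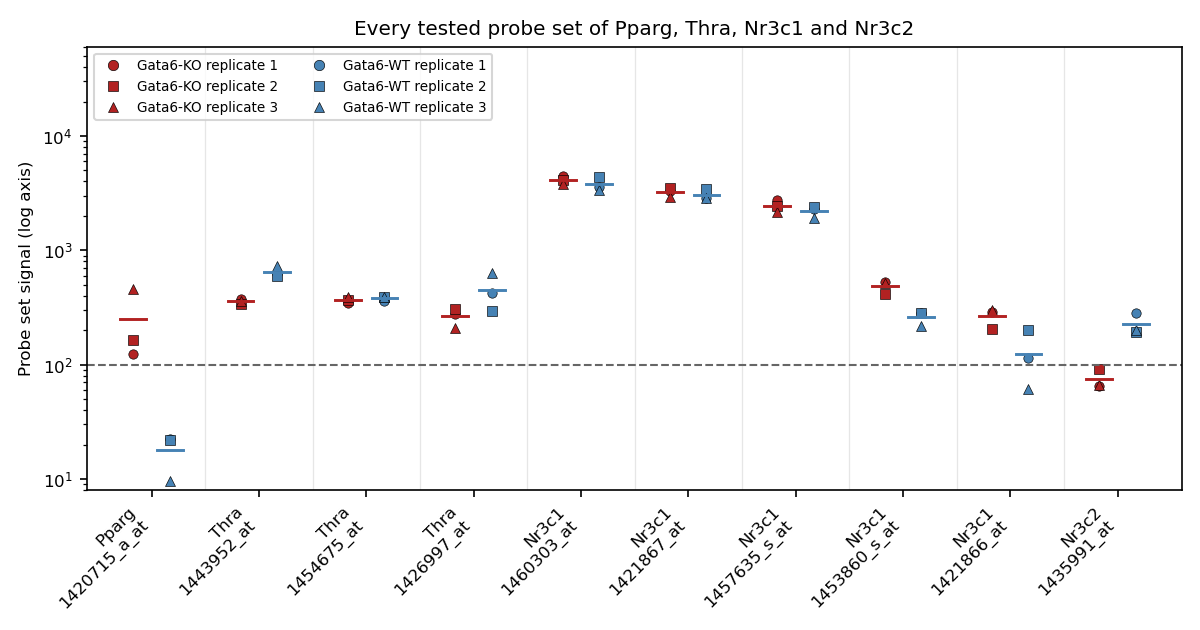
Signal (log axis) of each tested probe set of Pparg, Nr3c2, Thra and Nr3c1 on the 3 Gata6-KO arrays (left) and the 3 Gata6-WT arrays (right), with group means as bars and the background level dashed. In Thra 1 of 3 and in Nr3c1 1 of 5 probe sets passed the threshold, while the probe sets with the highest signals of Nr3c1 overlap between genotypes.

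Of 12 genes tested that glucocorticoids induce, 1 was higher and 2 were lower, beside 5.61% higher and 7.46% lower among all genes tested. The list median was -0.02. Sgk1, a kinase, had 5937, 6178 and 6389 in Gata6-KO against 3275, 3597 and 5219.5 in Gata6-WT (log2 difference 0.64, adjusted p = 0.034). Cdkn1c, a cell cycle inhibitor, had 166, 121 and 135 in Gata6-KO, against 332, 327 and 329.8 in Gata6-WT (log2 difference -1.15, adjusted p = 0.0043). Zfp36, which speeds the decay of inflammatory mRNA, had 1324, 1356 and 1711 in Gata6-KO, against 2864, 3759 and 12642 in Gata6-WT (log2 difference -1.81, adjusted p = 0.030). The groups were apart for all 3 genes, and Gata6-WT replicate 3 lay far above the other Gata6-WT arrays for Zfp36. Fkbp5 and Tsc22d3, classical glucocorticoid receptor targets, overlapped between genotypes (log2 differences -0.29 and 0.70, adjusted p = 0.783 and 0.305). With single arrays left out, the number called in this list was 1 when any one Gata6-KO array was left out and 4 without Gata6-WT replicate 3. The share of all genes called in those fits is not given here, so nothing about the list is read from these counts. The call of Cdkn1c held in all 6 such fits, that of Zfp36 in 3 and that of Sgk1 in 1.

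Esr1, the oestrogen receptor alpha, had 483, 485 and 372 in Gata6-KO, against 390.2, 233 and 284 in Gata6-WT. Only Gata6-WT replicate 1 reached the Gata6-KO range. The difference did not pass the test (log2 difference 0.56, 95% interval 0.08 to 1.03, adjusted p = 0.134), and its second probe set, 1435663_at, overlapped between genotypes. Esr2 and the progesterone receptor Pgr did not pass the filter.

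Nr1d1 and Nr1d2 encode REV-ERBα and REV-ERBβ, repressors of the clock gene Arntl that are themselves transcribed with a daily rhythm, and Rora and Rorb encode activators that bind the same sites. Nr1d2 had 780.0, 983 and 1892 in Gata6-KO, against 1726, 803 and 2507 in Gata6-WT. The arrays of both genotypes were spread widely and overlapped (log2 difference -0.42, 95% interval -1.33 to 0.50, adjusted p = 0.583). It was -0.06 within female-type and -1.13 within male-type arrays. Nr1d1 did not pass the filter, with 16, 13.8 and 16.7 in Gata6-KO, and 18.8, 13.0 and 324 in Gata6-WT. Only Gata6-WT replicate 3 was above background for Nr1d1, and that array was also the highest for Nr1d2. The Nr1d2 promoter window is given because it holds the core of the word that REV-ERB and ROR proteins recognise, in capitals, 77 bases before the start (RefSeq, GRCm38.p6, minus strand).
Nr1d2, chr14:18239057-18239356: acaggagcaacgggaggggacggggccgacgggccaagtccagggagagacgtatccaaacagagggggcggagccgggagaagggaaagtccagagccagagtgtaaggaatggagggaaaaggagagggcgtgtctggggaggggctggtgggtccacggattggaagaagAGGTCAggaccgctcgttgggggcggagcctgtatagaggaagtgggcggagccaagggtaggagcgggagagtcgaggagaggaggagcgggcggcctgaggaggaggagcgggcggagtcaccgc
The window of Nr1d1 held neither AGGTCA nor the E-box CACGTG, the word bound by the clock activators. Over the receptors' windows CACGTG stood in 4 of 51 (7.84%, against 7.15% of all windows).

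Rora had 6 tested probe sets, none of which passed. Its representative, 1424034_at, had 231, 283 and 229 in Gata6-KO, against 269.8, 292 and 285 in Gata6-WT (log2 difference -0.18, adjusted p = 0.558). Probe set 1420583_a_at had its groups apart the other way, with 239, 242 and 337 in Gata6-KO and 207, 215 and 136 in Gata6-WT (log2 difference 0.52, adjusted p = 0.197). Rorb was near background.

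Among the other clock genes, 2 of 12 tested were higher and 1 was lower, beside 5.61% higher and 7.46% lower among all genes tested. The list median was -0.07. Arntl, which encodes the activator BMAL1, had 1733, 2397 and 2495 in Gata6-KO, against 916, 1191 and 779 in Gata6-WT. The groups were apart (log2 difference 1.19, adjusted p = 0.0039), while its second probe set did not pass (275 ± 48.7 in Gata6-KO and 226 ± 23.3 in Gata6-WT, adjusted p = 0.467). Its partner Clock had 1365, 1593 and 1644 in Gata6-KO, against 1188, 985 and 882 in Gata6-WT (log2 difference 0.59, adjusted p = 0.030). That call held in 2 of 6 fits with an array left out, and 3 further probe sets of Clock did not pass. Nfil3, a repressor that REV-ERB proteins restrain in other cell types, had 960.1, 794 and 894 in Gata6-KO, against 1885, 1982 and 1392 in Gata6-WT (log2 difference -0.96, adjusted p = 0.0044). The calls of Arntl and Nfil3 held in all 6 such fits. The repressor Cry1 had 206, 397 and 239 in Gata6-KO, against 66.6, 228 and 51.5 in Gata6-WT, with the groups overlapping (log2 difference 1.37, adjusted p = 0.092). The time of day at which the mice were sampled is not stated in the sources used here, and its part in these values was not tested.

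**Figure D4:**
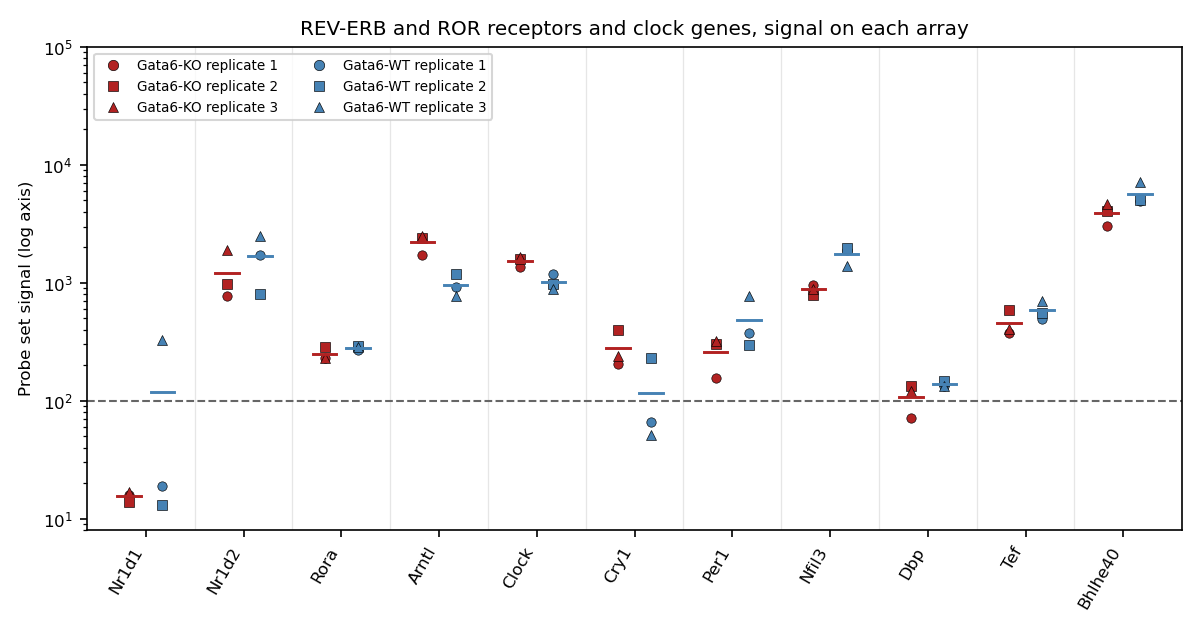
Signal (log axis) of Nr1d1, Nr1d2, Rora and clock genes on the 3 Gata6-KO arrays (left) and the 3 Gata6-WT arrays (right), with marker shape by replicate number and group means as bars. Arntl is higher and Nfil3 lower on all Gata6-KO arrays, and Nr1d1 exceeds the dashed background level of 100.2 on Gata6-WT replicate 3 alone.

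The NR4A receptors are orphan receptors whose genes are switched on within minutes of a stimulus. Nr4a1 (NUR77) had 479, 392 and 1028 in Gata6-KO, against 655, 899.5 and 851 in Gata6-WT. Gata6-KO replicate 3 was the highest of the 6 arrays and the other Gata6-KO arrays were the lowest. The difference did not pass (log2 difference -0.45, 95% interval -1.14 to 0.24, adjusted p = 0.415), but without Gata6-KO replicate 3 it did (log2 difference -0.85, adjusted p = 0.033). Nr4a2 (NURR1) overlapped between genotypes, with 179, 108 and 230.3 in Gata6-KO and 94.5, 221 and 124 in Gata6-WT (log2 difference 0.23, adjusted p = 0.733). The Nr4a2 difference was -0.06 within female-type and 0.82 within male-type arrays. Nr4a3 (NOR1) was near background.

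Other immediate early genes varied between arrays of 1 genotype. Of 19 tested, none was higher and 3 were lower, beside 5.61% higher and 7.46% lower among all genes tested. The list median was -0.12. Egr1 had 1295, 621 and 1883 in Gata6-KO, against 3121, 4272 and 11573 in Gata6-WT (log2 difference -2.21, adjusted p = 0.019). Ier2 and Junb were lower too (log2 differences -1.03 and -0.90, adjusted p = 0.0080 and 0.034). In all 3 genes every Gata6-KO array was below every Gata6-WT array. Fos, an early gene with one of the fastest responses, had 2291, 2640.3 and 4999.7 in Gata6-KO, against 2851, 3005 and 26266 in Gata6-WT. Gata6-WT replicate 3 was thus far above all other arrays for Fos, and it was also the highest for Dusp1 (27558) and Zfp36. Nr4a1 was not raised on that array. Without Gata6-WT replicate 3, 6 of the 19 passed, 3 in each direction, and without Gata6-KO replicate 2 the number was 1. The share of all genes called in those fits is not given here, so nothing about the list is read from these counts. The call of Ier2 held in all 6 fits with an array left out, that of Egr1 in 5 and that of Junb in 2.

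**Figure D5:**
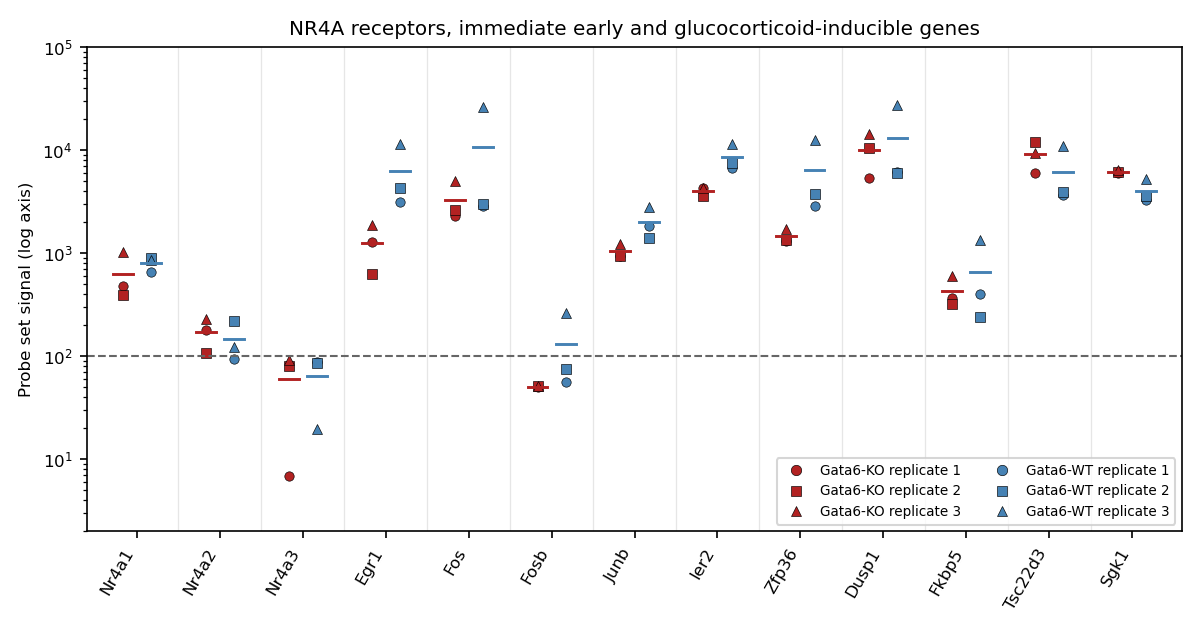
Signal (log axis) of the NR4A receptors, immediate early genes and glucocorticoid-inducible genes on the 3 Gata6-KO arrays (left) and the 3 Gata6-WT arrays (right), with marker shape by replicate number, group means as bars and the background level dashed. Egr1, Ier2 and Junb are lower on all Gata6-KO arrays, and Fos is highest on Gata6-WT replicate 3, where Nr4a1 is not.

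The testicular orphan receptors Nr2c1 (TR2) and Nr2c2 (TR4), which bind repeats of the AGGTCA word, had representative probe sets with lower signals on all Gata6-KO arrays than on any Gata6-WT array, without passing the test. Nr2c2 had 1573, 1471 and 1239 in Gata6-KO, against 1949, 1777 and 1699.6 in Gata6-WT (log2 difference -0.34, 95% interval -0.63 to -0.06, adjusted p = 0.130). Nr2c1 had 406, 429 and 353 in Gata6-KO, against 477, 535 and 473 in Gata6-WT (log2 difference -0.31, adjusted p = 0.230). Its other tested probe sets overlapped, among them 1449157_at with 120.3 ± 17.7 in Gata6-KO and 79.4 ± 28.8 in Gata6-WT (log2 difference 0.55, adjusted p = 0.287), and the mean log2 difference over the tested probe sets of Nr2c1 was -0.04 (adjusted p = 0.935). For Nr2c2, 2 of the other tested probe sets had differences of the opposite sign. Of these 1451569_at had 386, 299 and 327 in Gata6-KO and 341, 251 and 145 in Gata6-WT, where the groups overlapped, and the mean log2 difference over the tested probe sets was 0.12. Nr2f6 (EAR2) overlapped between genotypes, with 338, 339 and 429 in Gata6-KO and 448, 266 and 227 in Gata6-WT (log2 difference 0.27, adjusted p = 0.547). It was 0.60 within female-type and -0.39 within male-type arrays, and with single arrays left out it ranged between 0.08 without Gata6-WT replicate 3 and 0.55 without Gata6-WT replicate 1.

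Esrra, the oestrogen-related receptor that works with PGC-1 coactivators on genes of mitochondrial respiration, was among the most evenly measured. It had 701, 789 and 787 in Gata6-KO, against 782, 757 and 812 in Gata6-WT. The groups overlapped, and the 95% interval of the log2 difference was -0.33 to 0.23 (estimate -0.05, adjusted p = 0.860). Esrrb had 172 ± 15.8 in Gata6-KO and 189.6 ± 30.3 in Gata6-WT (log2 difference -0.12, adjusted p = 0.764), and Esrrg was near background. Of the Esrrb probe sets only the representative, 1441921_x_at, lay above the background level. The others, 1422986_at and 1436926_at, had mean signals of 66.9 and 31.9. A list of mitochondrial targets of these receptors and PGC-1 was read, which also held Esrra itself, Nrf1 and Gabpa. Of its 14 genes tested, 1 was higher and none was lower, beside 5.61% higher and 7.46% lower among all genes tested. The list median was 0.16. Without Gata6-KO replicate 3 the number was 2, and the share of all genes called in that fit is not given here. The gene called with all arrays was Cycs, cytochrome c, with 14764, 14444 and 15761 in Gata6-KO, against 8727, 9584 and 8498 in Gata6-WT (log2 difference 0.75, adjusted p = 0.0014). Ppargc1b, the coactivator PGC-1β, had 548, 494 and 542 in Gata6-KO, against 325, 364 and 419.6 in Gata6-WT (log2 difference 0.50, adjusted p = 0.070). Its groups were apart, with Gata6-KO above, and it did not pass. Ppargc1a was below the background level.

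Among coregulators and Rxra, 2 of 16 tested were lower and none was higher, beside 5.61% higher and 7.46% lower among all genes tested. The list median was 0.01. Nrip1, the corepressor RIP140 that many nuclear receptors recruit, had 1269, 1739.8 and 1489.6 in Gata6-KO, against 3298, 2779.8 and 4000.1 in Gata6-WT. Each Gata6-KO array was below each Gata6-WT array (log2 difference -1.15, adjusted p = 0.0020), and a second probe set, 1449089_at, was lower too (1014 ± 195 in Gata6-KO and 1853 ± 188 in Gata6-WT, log2 difference -0.87, adjusted p = 0.0072). Ncoa1, the coactivator SRC-1, had 1366, 1014 and 895 in Gata6-KO, against 1629, 1639 and 1652 in Gata6-WT (log2 difference -0.60, adjusted p = 0.039). A second probe set of Ncoa1, 1418594_a_at, was lower too (log2 difference -0.82, adjusted p = 0.0059). With single arrays left out, the call of Nrip1 held in all 6 fits, and that of the first Ncoa1 probe set in 1. The other 3 tested probe sets of Nrip1 did not pass.

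The 12 receptors tested near background were Vdr, Thrb, Rorb, Nr1i2, Hnf4a, Nr2f2, Esrrg, Nr4a3, Nr5a1, Nr5a2, Nr6a1 and Nr0b2. They include receptors best known from liver and gut (Hnf4a, the xenobiotic receptor Nr1i2 and the bile acid-induced repressor Nr0b2) and from steroid-producing tissue (Nr5a1). Their log2 differences lay between -0.68 and 0.71, and the lowest adjusted p was 0.242. The 10 that did not pass the filter were Ppara, Rxrg, Nr1d1, Nr1h4, Nr1i3, Nr2e1, Nr2f1, Esr2, Pgr and Nr0b1, with mean signals of 9.21 to 67.1. Nr2f2 (COUP-TFII) had a probe set with an odd spread, 1416159_at, with 39.4, 48.8 and 214 in Gata6-KO and 17.2, 16.6 and 12.5 in Gata6-WT. All Gata6-KO arrays were above all Gata6-WT arrays, but only Gata6-KO replicate 3 exceeded the background level, and the probe set did not pass the filter. The tested Nr2f2 probe set, 1436475_at, had 87.2, 59.3 and 46.3 in Gata6-KO and 42.7, 38.9 and 31.7 in Gata6-WT. Its groups were apart too, and it did not pass (log2 difference 0.55, adjusted p = 0.386). So were those of 1416158_at, below the filter (means 30.5 in Gata6-KO and 6.03 in Gata6-WT), while the remaining Nr2f2 probe sets overlapped.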

How the data were processed

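Total RNA of sorted peritoneal macrophages was hybridised to 1 array per pool. The deposited file gives, for each array, the authors' linear intensity of 45101 probe sets. The tools were MAS5 and affy, per the submitters' processing notes, with no version given. MAS5 subtracts stray signal estimated from mismatch probes, so low signals are noisy. Gene symbols came from the array annotation.

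Intensities were converted to log2(signal + 16) with no other scaling. Controls (64) were dropped. Probe sets entered the test when their mean log2 level exceeded its 40th percentile, 5.99 or a signal of 47.5, and 27022 did. The genotypes were compared in R 4.3.3 by limma 3.58.1 (lmFit, trended eBayes, two-sided, Benjamini-Hochberg over all probe sets tested, threshold 0.05). Log2 differences understate the change of low signals. The script was tested on simulated data. No detection calls were used. The number of arrays limits the precision; an exact permutation test of 3 against 3 arrays cannot go below p = 0.1.

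The receptors and gene lists were chosen with earlier results of these data known. Receptors that passed the threshold, or had the 10 highest mean signals, are given by array, as are up to 4 called members of each list. Other list members are named with their values. Alternatives tried were the pseudocount, filter, normalization, variance model, array weights, probe set rule, threshold, replicate block and arrays left out.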

Additional observations from a re-analysis of the deposited data

How the results depend on the processing

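Of the receptor calls, Pparg passed under all 16 alternatives run for it (log2 difference 1.79 to 3.57) and was not tested under a filter at the 60th percentile. Nr3c2 lost its call with replicates 2 and 3 alone (-1.17). Thra lost it as the mean of its probe sets (-0.51) and with a change of at least 2-fold required. Nr3c1 lost it with replicates 2 and 3 alone (0.87), without Gata6-KO replicate 3, at an adjusted p of 0.01 and with at least 2-fold required. The number of called receptor probe sets, 4 as reported, was 2 with replicates 2 and 3 alone and 2 with a change of at least 2-fold required, and 4 to 5 with single arrays left out. Called receptor genes, 3 as reported, were 3 to 4 with single arrays left out. The share of all genes called in those fits is not given here, so nothing is read from the receptor gene counts. Over all probe sets tested, 2916 calls became 1459 without a variance trend, 1654 with replicates 2 and 3 alone, 1251 at an adjusted p of 0.01, 1256 with at least 2-fold required, and 1856 to 2476 with single arrays left out. With the background set at its 99th percentile (491.6), 7 receptors were above it in place of 16.

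Some differences changed sign. Nr2c2 (-0.34 as reported) did so as the mean of its probe sets (0.12), since others of its probe sets had the opposite sign, and so did Rora (0.10) and Esrrb (0.014). Ppard did with a pseudocount of 1 (0.0032) and with quantile normalization (0.016), and ranged between -0.40 and 0.20 with single arrays left out, positive without Gata6-KO replicate 3, without Gata6-WT replicate 2 and without Gata6-WT replicate 3. Esrra did with replicates 2 and 3 alone (0.0070) and without Gata6-KO replicate 1 (-0.076 to 0.0080 with single arrays left out). Nr4a2 did with replicates 2 and 3 alone (-0.063) and without Gata6-WT replicate 1 (-0.0090 to 0.54 with single arrays left out). For Rora, Esrrb, Ppard, Esrra and Nr4a2 the cause was not tested.

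Same-numbered arrays' deviations from their genotype means had correlations of 0.13, 0.074 and 0.074, so by the rule used (all above 0.1) the arrays were not treated as pairs. The numbers still go with male-type and female-type RNA in both genotypes, for which the main fit held no term. The replicate block gave 3076 calls over all probe sets, 4 receptor probe sets and 3 receptor genes, and changed no receptor call. Counts of the gene lists with arrays left out were added after seeing the data.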
